A study of Arabidopsis with 6 samples.

Results

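The genes whose response to 2 h of light differed between wild type and PCD8 RNAi-21 seedlings of Arabidopsis are described here. For each gene, the 2 h response in a genotype was its log2(FPKM + 1) at 2 h of light minus that at 0 h, where FPKM is a transcript level scaled for transcript length and library size. The response difference was the response of RNAi-21 minus that of WT, so a positive value stands for a larger increase, or a smaller decrease, in RNAi-21. It uses 4 of the 6 libraries of the series and was computed for 18283 of the 19763 listed genes, those whose FPKM reached 1 in any of these 4. The groups were wild type (labelled wt) and the line RNAi-21, whose RNA interference construct is aimed at PCD8. Both were germinated on agar plates, kept in darkness for 4 days, and sampled at the end of darkness (0 h) or once light had been on for 0.5 or 2 h. RNAi-21 is 1 line, and the promoter of that construct is not given in the sources used here. Each group held 1 library, so a response difference rests on 4 libraries with no replicate. It has no test, no error and no p-value, and all statements below are of size. PCD8 could not be matched to a locus by name, so its level is not analysed here and gives no check of the RNAi-21 labels.

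A seedling kept in the dark grows a long hypocotyl, keeps its cotyledons closed and holds etioplasts, plastids without a photosynthetic apparatus. Light seen by phytochromes and cryptochromes removes the PIF growth-promoting factors and lets the transcription factor HY5 accumulate. Genes of the photosynthetic apparatus, of pigment synthesis and of photoprotection are then switched on, and genes of cell elongation and of dark survival are switched off. The response difference asks in which of these programmes the first 2 h of light had a different size in RNAi-21.

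The summed FPKM was 829043 and 823287 in WT at 0 and 2 h, and 792994 and 891009 in RNAi-21 at 0 and 2 h. The read depth behind these values is unknown. The tissue is labelled leaf, but root markers were present in all 6 libraries. PYK10, an abundant beta-glucosidase of roots and seedlings, stood between 3478.25 and 6889.11, and CASP1, which builds the Casparian strip of the root endodermis, between 371.13 and 490.52. In these bulk samples, fewer cells of a type and less RNA per cell cannot be told apart.

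The response difference ran with the length of the gene, and this touches every result below. Across the 18111 genes with a locus length in the RefSeq TAIR10.1 table, Spearman's rho between locus length and response difference was -0.55. This correlation is a description across genes that share the same 4 libraries. The median response difference was 0.33 in the shortest 10% of genes, those of up to 1136 bases, and -0.45 in the longest 10%, those of at least 4657 bases. The libraries at 2 h carried most of it. The difference between RNAi-21 and WT had a rho with length of -0.53 at 2 h, 0.25 at 0 h and -0.09 at 0.5 h. The part of length in the results was not tested. An adjusted value, which is the response difference minus the median of genes of like length, is therefore given for named genes whose difference it brings to the other side of 1 and for many list medians, and the plot of list medians shows it for each list of nuclear genes. The adjustment was chosen after seeing the data.

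**Figure D1:**
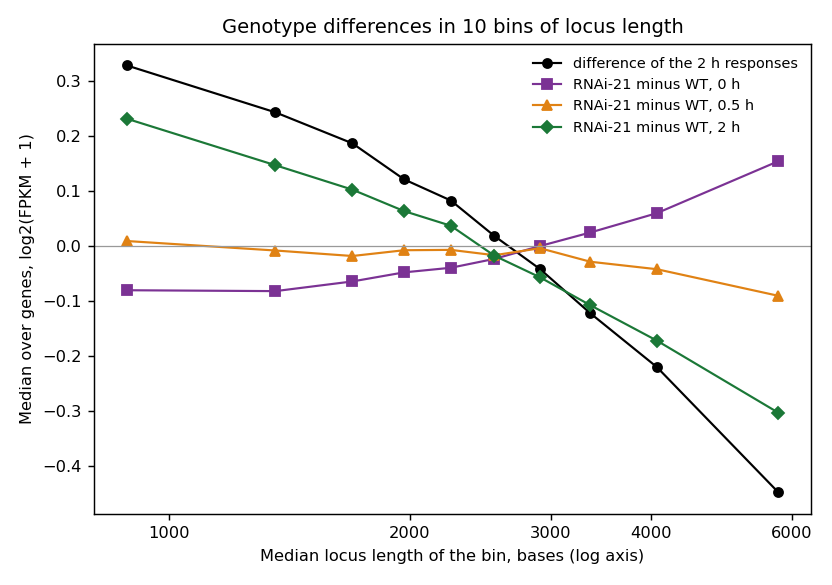
Median difference between genotypes (y axis, log2(FPKM + 1)) in 10 bins of genes ordered by locus length (x axis, bases, log scale), for the difference of the 2 h responses and for RNAi-21 minus WT at each light time, with 1 library per group. The response difference goes from 0.33 in the shortest bin to -0.45 in the longest, and the line for 2 h goes from 0.23 to -0.30.

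Most genes changed by less than 1 over 2 h of light in each genotype, and for most the 2 responses were close. In WT 1438 of the genes kept increased by at least 1 and 840 decreased by at least 1. In RNAi-21 these numbers were 1632 and 805. The median response difference was 0.02, and 15019 genes, or 82.1%, lay within 0.5 of 0. In RNAi-21 180 genes had a response at least 1 higher than in WT, 0.985% of those kept, and 124 had a response at least 1 lower, 0.678%. Of all genes this far apart, 59.2% were therefore on the higher side. That share was 30.6% (121 higher and 275 lower) when organelle-encoded genes were left out and library totals were made equal. After adjustment for length 85 genes stood at least 1 higher (0.469% of 18111) and 98 at least 1 lower (0.541%), a share of 46.4% on the higher side. Of the genes counted without the adjustment, 75 of the 180 higher and 61 of the 124 lower were also counted with it. Which direction held more genes thus depended on the scaling.

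Low values took a large part in these counts. Of the 180 higher genes, 96 stayed under an FPKM of 5 in all 4 libraries and 27 were listed at 0 in at least 1. Of the 124 lower genes, 46 stayed under 5 and 12 were listed at 0 in at least 1. Among genes that peaked between 2 and 5, 3.29% differed by at least 1, against 0.511% of those that reached 100. The higher genes had a median locus length of 1148 bases and the lower genes one of 3386, beside 2399 for all genes kept. The higher side included 9 organelle-encoded genes, and the lower side none.

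**Figure D2:**
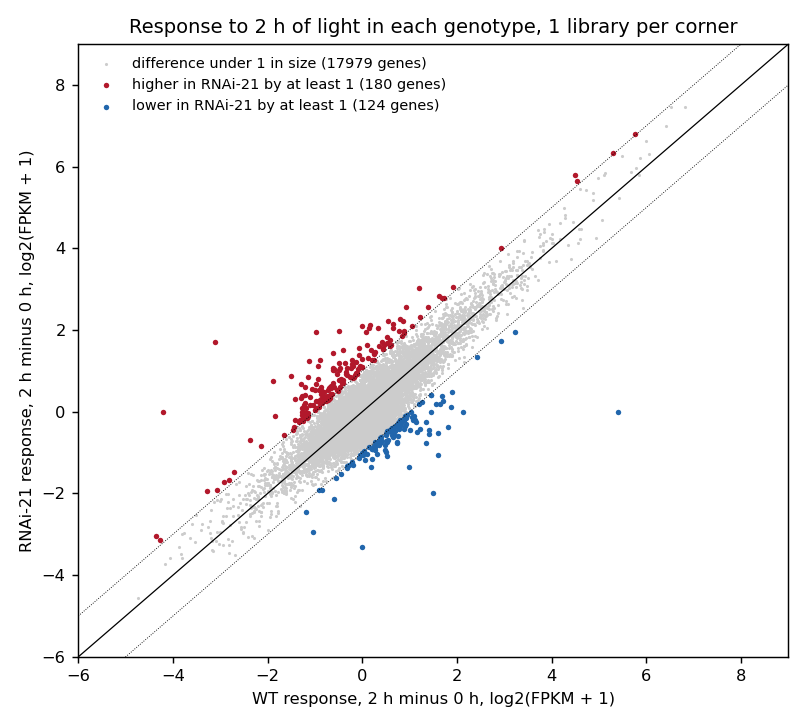
Response to 2 h of light in WT (x axis) and RNAi-21 (y axis), log2(FPKM + 1), for each of the 18283 genes kept, with 1 library at each corner of the comparison. The solid line marks equal responses and the dotted lines a difference of 1; 180 genes lie above the upper dotted line and 124 below the lower one.

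Few of the genes with a response difference of at least 1 in size changed that much with light in both genotypes. Over all genes kept, changes of that size were also a minority, with 1438 up and 840 down in WT and 1632 and 805 in RNAi-21. The share of all genes that changed so in both genotypes is not given here, so the counts below are a description. Of the 180 higher genes, 61 increased by at least 1 in RNAi-21 and changed by less than 1 in WT. Another 59 stayed within 1 in both genotypes, and 38 decreased by at least 1 in WT alone. A gene within 1 in both genotypes needs responses of opposite sign to be counted here, so that pattern follows from the choice of genes. Genes that increased by at least 1 in both genotypes numbered 13, and genes that decreased by at least 1 in both numbered 7. Of the 124 lower genes, 67 stayed within 1 in both genotypes, 28 increased by at least 1 in WT alone and 22 decreased by at least 1 in RNAi-21 alone. Genes that increased by at least 1 in both numbered 3, which were BAG6 and HSFA6B of the heat response and the phosphatase HAB1.

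A response difference can come from the dark, from the light, or from both. Among the 180 higher genes, the larger of the 2 genotype differences was the one at 0 h for 79 and the one at 2 h for 101. Their median difference between RNAi-21 and WT was -0.59 at 0 h and 0.71 at 2 h. For the 124 lower genes it was 0.56 and -0.59, with 56 larger at 0 h and 68 at 2 h. These values come from the libraries that chose the genes and are a description. The 0.5 h libraries took no part in the choice. There the median difference between RNAi-21 and WT was 0.04 for the higher genes (97 of 180 above 0), -0.04 for the lower genes (56 of 124 above 0), and -0.03 for all genes kept (8329 of 18283 above 0). The values spread widely around these medians, with 90% of the higher genes between -1.11 and 1.15 and 90% of the lower genes between -0.50 and 0.88, against -0.44 and 0.50 for all genes kept.

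Among the single genes, the 15 highest and 15 lowest response differences are given first, among genes that have a symbol and reach an FPKM of 5 in any of the 4 libraries. The highest is RKD1 (AT1G18790), a transcription factor known from egg cells. It had an FPKM of 17.41 in WT at 0 h and was listed at 0 in the other 5 libraries, so its response difference of 4.2 rests on a single value. U1.5 (AT1G08115), a gene for the small nuclear RNA of the U1 particle that recognises splice sites, had FPKM of 42.31, 26.06 and 29.94 in WT at 0, 0.5 and 2 h. In RNAi-21 it had 4.4, 8.25 and 20.33. Its response difference of 2.47 came mostly from the low RNAi-21 value in the dark, and at each time WT was higher. U2.3 (AT3G57765), of the U2 particle, had 23.57, 25.97 and 16.47 in WT and 15.15, 13.70 and 31.48 in RNAi-21, a response difference of 1.5. Near-identical copies of these RNA genes exist, so how reads were divided between the copies makes their values uncertain.

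Seed storage protein genes recurred among the highest. CRU3 (AT4G28520), a cruciferin stored in the embryo, had 0.17, 84.72 and 0.29 in WT at 0, 0.5 and 2 h and 2.14, 5.51 and 11.96 in RNAi-21, a response difference of 1.91. CRA1 (AT5G44120), another cruciferin, had 0.29, 63.90 and 0.89 in WT and 2.89, 8.01 and 17.16 in RNAi-21, a response difference of 1.68. The WT library at 0.5 h, which the response difference does not use, held the highest level of both. The seed storage list holds cruciferins, napins, oleosins and other late embryo genes. All 12 members kept had a response difference above 0, with a median of 0.95, or 0.69 after adjustment for length. Some, such as SESA2 and M17, passed the filter through their RNAi-21 value at 2 h alone, which favours differences above 0. Over all 18 listed, with no filter, the median was 0.62. Over the 4 with an FPKM of at least 1 in each library it was 0.49. The size of the median thus depended on the filter. Of the 12 kept, 6 were at least 1 higher, where 0.985% of all genes were, and none at least 1 lower. After the adjustment 3 were at least 1 higher. The oil body protein OLEO2 (AT5G40420) had 5.12, 13.97 and 3.80 in WT and 4.84, 7.63 and 10.11 in RNAi-21, a difference of 1.28. The napin SESA5 (AT5G54740) stood at 1.25, or 0.93 after adjustment for length. The summed FPKM of 5 seed markers was 6.44, 178 and 5.90 in WT at 0, 0.5 and 2 h and 10.8, 23.1 and 41.8 in RNAi-21. The part of seed material in these samples was not tested.

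The rest of the highest genes were of mixed kind. MUB2 (AT5G15460), a membrane-anchored ubiquitin-fold protein, stood at 1.82, and BNS (AT1G73177), a small subunit of the anaphase-promoting complex, at 1.48. TCP3 (AT1G53230), a transcription factor of leaf development, had 5.35, 3.15 and 3.17 in WT and 2.60, 3.85 and 6.47 in RNAi-21, a response difference of 1.66. AREB3 (AT3G56850), a bZIP factor of the abscisic acid response family, had 9.45, 7.79 and 3.97 in WT and 5.69, 6.12 and 8.89 in RNAi-21, a difference of 1.64. Both had a value that was higher in WT in the dark and higher in RNAi-21 after 2 h. MLP328 (AT2G01520), a major latex protein-like gene, had the same crossing pattern, with 30.21, 11.17 and 14.94 in WT and 18.27, 25.77 and 29.78 in RNAi-21 and a difference of 1.65. PTAC15 (AT5G54180), a component of the plastid transcriptionally active chromosome, went from 79.82 to 46.63 and 33.86 in WT and from 34.32 to 23.55 and 40.23 in RNAi-21, so that its difference of 1.44 lay for the most part in the dark. AGP17 (AT2G23130), an arabinogalactan protein of the cell wall, had 5.04, 3.65 and 9.48 in WT and 3.21, 6.03 and 19.38 in RNAi-21, a difference of 1.48. LCR67 (AT1G75830), a small cysteine-rich peptide gene, also stood at 1.48, and the precursor gene MIR171c (AT1G62035), whose mature miRNA targets GRAS factors, at 1.45.

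**Figure D3:**
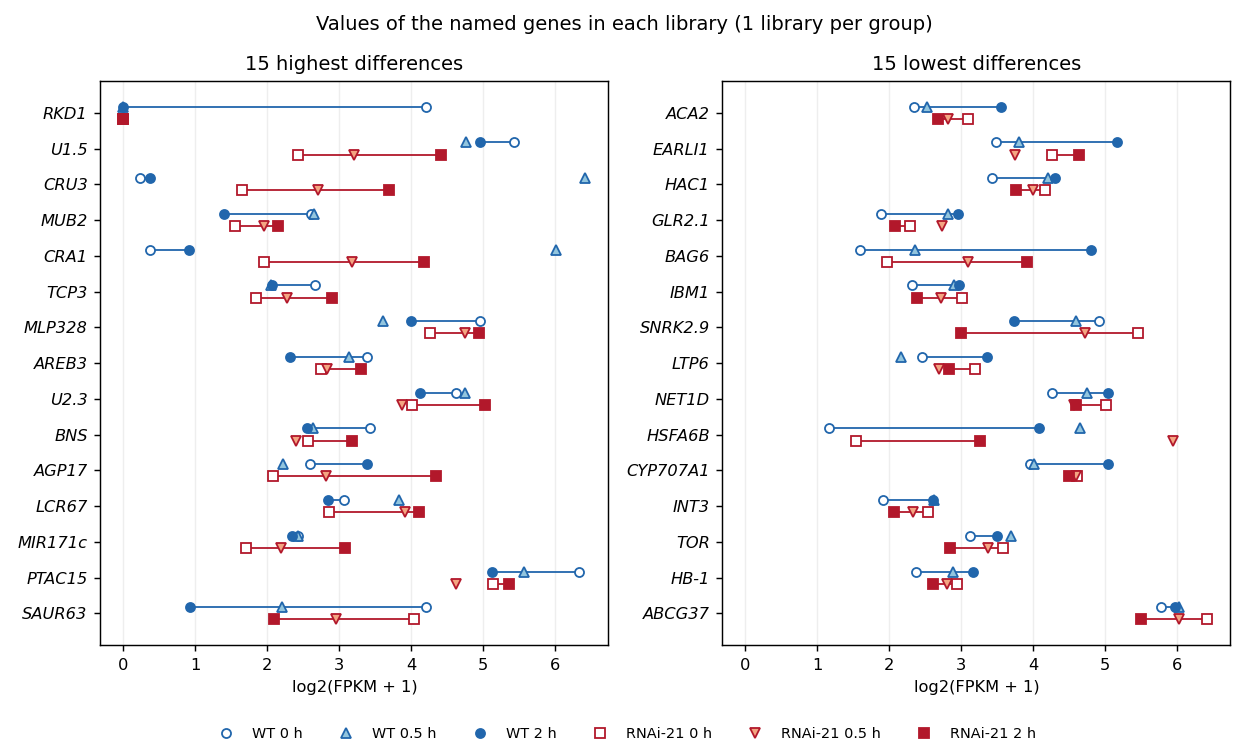
Levels of the 15 genes with the highest and the 15 with the lowest response difference, log2(FPKM + 1) on the x axis, in each of the 6 libraries (blue, WT; red, RNAi-21; open symbols 0 h, filled circles and squares 2 h, triangles 0.5 h). Lines join 0 h and 2 h within a genotype; for CRU3 and CRA1 the WT library at 0.5 h lies far outside them, at FPKM of 84.72 and 63.90.

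Among the lowest genes, several increased with light in WT and stayed near their dark level in RNAi-21. ACA2 (AT2G28210), an alpha carbonic anhydrase, had 4.08, 4.76 and 10.75 in WT and 7.52, 6.03 and 5.40 in RNAi-21, a response difference of -1.62. EARLI1 (AT4G12480), a lipid transfer-like protein of systemic defence priming, had 10.16, 13.02 and 34.82 in WT and 18.22, 12.39 and 24.00 in RNAi-21, a difference of -1.3. CYP707A1 (AT4G19230), which breaks down abscisic acid, had 14.57, 15.21 and 31.98 in WT and 23.54, 23.27 and 21.72 in RNAi-21, a difference of -1.19. In all 3 genes RNAi-21 was higher than WT in the dark and lower after 2 h. The glutamate receptor-like channel gene GLR2.1 (AT5G27100) stood at -1.28, LTP6 (AT3G08770), a lipid transfer protein, at -1.26 and the inositol transporter gene INT3 (AT2G35740) at -1.17. SNRK2.9 (AT2G23030), a protein kinase, decreased in both genotypes, from 29.32 to 23.11 and 12.25 in WT and from 42.99 to 25.27 and 7.0 in RNAi-21, a difference of -1.27.

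Another 6 of the lowest genes were long, and their values came within 1 of 0 once length was adjusted for. HAC1 (AT1G79000), a histone acetyltransferase, had 9.78, 17.43 and 18.77 in WT and 17, 14.98 and 12.52 in RNAi-21, with a response difference of -1.29 and an adjusted value of -0.71. IBM1 (AT3G07610), a histone demethylase, went from -1.27 to -0.74 with the adjustment, and NET1D (AT1G03080), an actin-binding protein, from -1.21 to -0.68. The growth-controlling kinase TOR (AT1G50030), at 17748 bases the longest locus among the named genes, had 7.67, 11.90 and 10.34 in WT and 10.98, 9.41 and 6.16 in RNAi-21. Its response difference was -1.13 and its adjusted value -0.55. The homeobox gene HB-1 (AT1G28420) went from -1.13 to -0.55 and the transporter gene ABCG37 (AT3G53480) from -1.12 to -0.60. Only SAUR63 among the highest genes came within 1 of 0, at 0.97, and no named gene changed sign.

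Heat response genes made the last group among the lowest. HSFA6B (AT3G22830), a heat shock factor, had 1.24, 24.25 and 15.99 in WT and 1.90, 60.66 and 8.58 in RNAi-21. At 0.5 h RNAi-21 was thus higher and at 2 h WT was higher, and the response difference at 2 h was -1.20. BAG6 (AT2G46240), a heat-inducible cochaperone, had 2.01, 4.14 and 26.88 in WT and 2.92, 7.57 and 14.04 in RNAi-21, a difference of -1.27. Over the 25 heat shock proteins kept, the median 2 h response was 3.12 in WT and 2.91 in RNAi-21, and 15 had a response difference below 0. The median difference was -0.17, and -0.19 after adjustment for length. The plastid chaperone CLPB3 (AT5G15450) stood at -0.80 and the cytosolic disaggregase HSP101 (AT1G74310), with 7.56, 25.06 and 94.09 in WT and 6.23, 53.39 and 55.86 in RNAi-21, at -0.50. HSP101 and HSFA6B therefore had the higher value in RNAi-21 at 0.5 h and in WT at 2 h. The 7 small heat shock proteins had a median difference of 0.07 and the 18 larger chaperones and cochaperones one of -0.19, but after adjustment for length these were -0.21 and -0.14, so the order of the 2 groups depended on the adjustment. HSP17.6A (AT5G12030) went the other way, at 0.78. Of the 18 heat shock factors, 12 were below 0, with a median of -0.19 and an adjusted median of -0.23.

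Gene lists of the greening programme are described next, each beside the median of 0.02 over all genes, of which 51.7% had a response difference above 0. List medians near 0 have no stable sign: with library totals made equal 11 of 38 changed sign, 8 of which had been within 0.1 of 0, and after adjustment for length 4 of 38 did, 3 of them within 0.1. For nuclear genes of the photosystems, electron transport and ATP synthase, 30 of 32 had a response difference above 0, and none reached 1. Their median 2 h response was 1.06 in WT and 1.41 in RNAi-21. The median response difference was 0.41, and 0.19 after adjustment for length, in a list whose genes are short, with a median locus of 1406 bases. With library totals made equal the median was 0.23. PGR5 (AT2G05620), which serves cyclic electron flow, had 25.97, 33.23 and 87.72 in WT and 18.07, 28.09 and 108.04 in RNAi-21, a difference of 0.80. The ferredoxin FD1 (AT1G10960) had 102.5, 181.59 and 644.46 in WT and 89.35, 230.05 and 925.77 in RNAi-21, a difference of 0.72. The plastocyanin PETE1 (AT1G76100) stood at 0.63. All 11 photosystem I and all 8 photosystem II subunits kept were above 0, with medians of 0.40 and 0.47. After adjustment for length these medians were 0.14 and 0.21. For photosystem II subunits the median of RNAi-21 minus WT was -0.19 at 0 h, -0.64 at 0.5 h and 0.26 at 2 h.

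The antenna proteins, which bind chlorophyll and pass light energy to the photosystems, had 17 of 20 members above 0 and a median of 0.27. After adjustment for length the median was 0.03, close to that of all genes. Lhca5 (AT1G45474) had 14.69, 16.46 and 39.69 in WT and 8.72, 10.97 and 43.12 in RNAi-21, a difference of 0.81. The abundant LHB1B2 (AT2G34420) had 1819.22, 1820.27 and 2427.68 in WT and 1054.69, 886.07 and 2261.69 in RNAi-21, a difference of 0.68. In both, RNAi-21 started lower in the dark and stood nearer to WT after 2 h. Reads of near-identical antenna genes may be shared among copies, which makes the split among them uncertain.

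Pigment and carbon metabolism follow. The tetrapyrrole list, for the synthesis of haem and chlorophyll, showed a median of 0.08 in 33 genes and a range from -0.41 for PORA (AT5G54190), the protochlorophyllide reductase abundant in dark-grown seedlings, to 0.47 for HO2 (AT2G26550), a haem oxygenase. The Calvin cycle list, which fixes carbon, had a median of 0.13 with 16 of 18 above 0, though it was -0.05 with library totals made equal. Photorespiration, which recovers carbon after oxygenation by Rubisco, had 13 of 16 above 0 and a median of 0.19, and 0.28 after adjustment for length. HPR (AT1G68010), hydroxypyruvate reductase, had 73.08, 94.90 and 141.03 in WT and 46.32, 47.15 and 127.43 in RNAi-21, a difference of 0.50. The carotenoid list had a median of 0.03 and the starch list one of -0.20, which was 0.00 after adjustment for length. Of 34 starch genes, 26 were below 0, and 17 with the adjustment. The lowest were the glucan-processing DPE1 (AT5G64860) at -0.86 and the starch synthase SS4 (AT4G18240) at -0.84, with adjusted values of -0.68 and -0.46.

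Plastid-encoded transcripts had the highest list median here, though seed storage genes stood higher with a minimum FPKM of 5 (1.25 against 1.18) and from 0.5 h (2.00 against 0.75). The deposited values list 15 plastid-encoded genes in all, and the statements here cover these genes alone. All 14 of them that were kept had a response difference above 0, with a median of 1.04. Of the 14, 7 were at least 1 higher, beside 0.985% of all genes. The median of RNAi-21 minus WT was -1.41 at 0 h, -1.09 at 0.5 h and -0.39 at 2 h, so RNAi-21 was lower at each time and the gap was widest in the dark. The plastid gene ATCG00280 had 52.41, 42.23 and 66.44 in WT and 8.94, 11.51 and 40.38 in RNAi-21, a difference of 1.72. ATCG01040 had 19.82, 13.61 and 12.59 in WT and 8.47, 15.78 and 18.74 in RNAi-21, a difference of 1.67. Of 22 mitochondrion-encoded genes kept, 20 were above 0, with a median of 0.60. It was 0.34 over all 40 listed, with no filter, and 0.26 with 0.5 h in place of 0 h as the starting point. The most abundant, ATMG00020, had 971.7, 767.47 and 848.83 in WT and 444.17, 481.39 and 790.26 in RNAi-21, a difference of 1.02. Organelle-encoded genes took 0.255%, 0.22% and 0.238% of the summed values in WT at 0, 0.5 and 2 h and 0.128%, 0.149% and 0.197% in RNAi-21. The share, computed for plastid and mitochondrial genes together, was thus lowest in RNAi-21 at 0 h. The median of RNAi-21 minus WT was also lowest at 0 h in each list, at -1.41 for plastid and -0.92 for mitochondrial genes. The part of this shared shift in the values of single organelle genes was not tested. Among nuclear genes of plastid gene expression the median was -0.09 over 29 genes, with PTAC15 at 1.44 as the only one at least 1 from 0.

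Light signalling genes had 23 of 33 members above 0 and a median of 0.34, or 0.13 after adjustment for length. BIC1, BBX30 and ELIP1 were at least 1 higher and LAF1 at least 1 lower, beside 0.985% and 0.678% of all genes, and after the adjustment the first 3 stood at 0.97, 0.67 and 0.77 and LAF1 at -1.27. With 0.5 h in place of 0 h as the starting point the median was -0.24, since RNAi-21 was already higher than WT at 0.5 h by a median of 0.29. BIC1 (AT3G52740), an inhibitor of cryptochromes, had 1.17, 1.68 and 47.66 in WT and 0.36, 2.16 and 73.81 in RNAi-21, a difference of 1.3. ELIP1 (AT3G22840), a photoprotective early light-induced protein, had 14.69, 27.74 and 615.5 in WT and 9.23, 45.82 and 816.58 in RNAi-21, a difference of 1.03. BBX30 (AT4G15248), a microprotein of the B-box family, had 0.55, 20.09 and 82.69 in WT and was listed at 0, then at 77.34 and 109.7, in RNAi-21, also a difference of 1.03. In each of these genes RNAi-21 had the lower value in the dark and the higher value after 2 h. For BIC1 and BBX30, RNAi-21 minus WT at 0 h was -0.68 and -0.63. A part of their response differences thus rests on very low dark values in single libraries. HY5 (AT5G11260), the central activator of greening, had 18.01, 77.98 and 180.84 in WT and 13.23, 103.35 and 214.9 in RNAi-21, a difference of 0.67. LAF1 (AT4G25560), a MYB factor of phytochrome A signalling, went from 5.63 to 2.51 in WT and from 6.69 to 1.02 in RNAi-21, a difference of -1.01. The photoreceptors and PIF factors had a median of 0.02, and the circadian clock list one of -0.20, or -0.18 after adjustment for length. Of the 25 clock genes 15 were below 0 and 10 above. PRR3 (AT5G60100) was lowest, at -0.82. The evening genes TOC1 (AT5G61380) and ELF3 (AT2G25930) stood at -0.51 and -0.60, or -0.34 and -0.31 after the adjustment. LNK1 (AT5G64170), PRR7 (AT5G02810) and CCA1 (AT2G46830) were also below 0, at -0.41, -0.39 and -0.33.

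Flavonoid genes, which make light-screening pigments, had 15 of 20 members above 0, a median of 0.28 and an adjusted median of 0.18, while with a 0.5 h starting point the median was -0.12. The chalcone synthase gene TT4 (AT5G13930) had 1.61, 1.96 and 164.89 in WT and 1.97, 2.36 and 291.51 in RNAi-21, a difference of 0.63. F3H (AT3G51240), the next hydroxylase of the pathway, had 1.33, 5.81 and 262.42 in WT and 0.72, 17.50 and 302.19 in RNAi-21, a difference of 0.64. CHIL (AT5G05270), which assists chalcone formation, stood at 0.84. The 3 genes stood under 3 in the dark and at 87.59 or more after 2 h in both genotypes, and none of the list reached a difference of 1.

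Auxin-responsive growth genes gave a split within 1 list. The median was 0.25 over 38 genes and 0.12 after adjustment for length. In the list 4 genes, all SAUR, were at least 1 higher and none at least 1 lower, beside 0.985% and 0.678% of all genes. After the adjustment none of the 4 reached 1, at 0.97 for SAUR63, 0.96 for SAUR19, 0.82 for SAUR14 and 0.79 for SAUR20. The SAUR genes, which promote cell expansion, had 16 of 17 members above 0 and a median of 0.88, or 0.53 after adjustment. The Aux/IAA repressors had a median of 0.07 over 11 genes. SAUR63 (AT1G29440) had 17.48, 3.59 and 0.90 in WT and 15.45, 6.76 and 3.26 in RNAi-21, a difference of 1.33. SAUR19 (AT5G18010) had 72.68, 4.07 and 2.58 in WT and 63.48, 7.94 and 6.81 in RNAi-21, a difference of 1.32. Both started alike in the 2 genotypes and decreased less far in RNAi-21. SAUR14 (AT4G38840) instead increased, from 23.02 to 27.90 in WT and from 20.82 to 58.56 in RNAi-21, a difference of 1.18. The median SAUR response was -3.07 in WT and -2.16 in RNAi-21, and RNAi-21 was higher by a median of 0.01 at 0 h, 0.32 at 0.5 h and 0.90 at 2 h. SAUR genes are short and have near-identical neighbours, so their single values are uncertain.

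Other growth genes moved less. The xyloglucan-modifying XTH genes had 13 of 16 above 0 and a median of 0.24, and the expansins a median of 0.01 over 12. TCH4 (AT5G57560), a touch-inducible XTH, had 65.16, 39.21 and 116.18 in WT and 47.69, 42.55 and 155.94 in RNAi-21, a difference of 0.86. All 13 plasma membrane aquaporins kept were above 0, between 0.18 and 0.47, with a median of 0.24 and an adjusted median of 0.17. Among them PIP1B (AT2G45960) had 3527.34, 3033.19 and 5869.58 in WT and 2911.79, 3076.71 and 6693.56 in RNAi-21. Gibberellin genes had a median of 0.15, which was 0.03 after adjustment for length and -0.023 with library totals made equal, brassinosteroid genes one of 0.05, ethylene genes one of -0.03 and jasmonate genes one of -0.06.

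Genes of abscisic acid and desiccation protection held members at both ends. The median was -0.17 over 35 genes, with 4 at least 1 higher and 1 at least 1 lower, beside 0.985% and 0.678% of all genes. KIN2 (AT5G15970), a cold- and abscisate-inducible protein, had 48.24, 52.44 and 1140.56 in WT and 44.35, 153.04 and 2266.81 in RNAi-21, a difference of 1.11. The dehydrin RAB18 (AT5G66400) had 22.11, 27.93 and 41.71 in WT and 12.91, 21.45 and 51.96 in RNAi-21, a difference of 1.04. COR15A (AT2G42540) and COR15B (AT2G42530), chloroplast cold-protection proteins that lie side by side, stood at 1.09 and 1.13 with no value above 7.43. In the other direction HAB1 (AT1G72770), a phosphatase that restrains abscisic acid signalling, had 19.07, 35.81 and 105.84 in WT and 25.24, 49.67 and 65.45 in RNAi-21, a difference of -1.07. After adjustment for length none of the 5 reached 1, at 0.99 for COR15B, 0.98 for COR15A, 0.78 for KIN2, 0.78 for RAB18 and -0.95 for HAB1.

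Defence lists follow. The salicylate list had 3 of 17 members at least 1 lower and none at least 1 higher, with or without the adjustment, where 0.678% and 0.985% of all genes were. Its median was -0.25 and its adjusted median -0.23. The 3 were EARLI1, NIMIN1 and WRKY70. WRKY70 (AT3G56400), a transcription factor of salicylate responses, had 16.40, 18.85 and 12.81 in WT and 20.32, 13.46 and 7.14 in RNAi-21, a difference of -1.06. NIMIN1 (AT1G02450), a partner of the salicylate coactivator NPR1, stood at -2.12 with no value above 2.46. DIR1 (AT5G48485), a lipid transfer protein of systemic resistance, went from 28.11 to 117.96 in WT and from 21.61 to 182.26 in RNAi-21, a difference of 0.99. The early stress list, of fast calcium, wounding and singlet oxygen responses, had a median of 0.07 over 48 genes, which was -0.12 after adjustment for length. WRKY33 (AT2G38470), of fungal defence, stood at -0.90 and the touch-responsive CML38 (AT1G76650) at 0.92. Among indole defence genes, CYP71A12 (AT2G30750), of indole defence compound synthesis, went from 6.85 to 2.42 and 2.14 in WT and from 11.81 to 15.72 and 10.19 in RNAi-21, a difference of 1.13. The antioxidant list had 27 of 40 above 0 and a median of 0.19, or 0.09 after adjustment for length, with the iron store FER3 (AT3G56090) at 0.77.

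Genes of dark survival and of reserve use had medians below 0. Of the dark starvation list, 25 of 33 were below 0, with a median of -0.24 and an adjusted median of -0.17. ASN1 (AT3G47340), an asparagine synthetase switched on in darkness, had 369.75, 422.76 and 75.33 in WT and 311.94, 230.86 and 35.59 in RNAi-21, a difference of -0.82. DIN2 (AT3G60140), a dark-inducible glucosidase, had 151.2, 133.37 and 22.61 in WT and 166.36, 83.07 and 13.71 in RNAi-21, also a difference of -0.82. The lysine-degrading LKR (AT4G33150) stood at -0.99, or -0.47 after adjustment. The EXORDIUM-like PHI-1 (AT1G35140) went the other way, with 29.62, 21.33 and 33.88 in WT and 22.19, 15.41 and 49.99 in RNAi-21, a difference of 0.95. For ASN1 and DIN2 the decrease was thus larger in RNAi-21 and was under way at 0.5 h, when WT was still near its dark level. With 0.5 h as the starting point the list median was -0.00079. Reserve mobilisation, of fatty acid breakdown and the glyoxylate cycle, had 20 of 24 below 0 and a median of -0.25, but -0.06 after adjustment for length, in a list of long genes with a median locus of 3893 bases. Nitrogen assimilation had a median of -0.16, and iron homeostasis one of -0.09, with the iron sensor BTS (AT3G18290) at -1.01 and the iron transporter IRT1 (AT4G19690) at -0.90. After adjustment for length BTS stood at -0.49 and IRT1 at -1.08.

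The lowest list median was that of secondary walls and xylem, in which 18 of 23 genes were below 0. With library totals made equal this list stood at -0.405, and the salicylate (-0.423) and reserve mobilisation (-0.420) lists were lower. The median of the xylem list as deposited was -0.28, and -0.25 after adjustment for length. TED7 (AT5G48920), a protein of tracheary element formation, had 36.20, 39.07 and 34.29 in WT and 31.01, 33.34 and 13.65 in RNAi-21, a difference of -1.05. The lignin laccases LAC11 (AT5G03260), with 28.94, 30.52 and 24.41 in WT and 30.00, 29.66 and 14.45 in RNAi-21, and LAC17 (AT5G60020) stood at -0.77 and -0.61. In these genes the low value was that of RNAi-21 at 2 h, and the other 5 libraries lay close together. The 8 xylem markers listed summed to 460, 400 and 243 in WT and 446, 349 and 194 in RNAi-21 at 0, 0.5 and 2 h. CESA4 (AT5G44030) was the largest part of these sums, with 251.93, 197.42 and 70.95 in WT and 253.34, 172.28 and 80.03 in RNAi-21. At 2 h CESA4 was thus higher in RNAi-21, unlike the sum. The median response difference of the markers was -0.32. Medians of the root, phloem, epidermis, stomata and cell cycle lists were -0.07, -0.06, 0.12, 0.11 and -0.04. Each of these signs changed under some alternative: phloem was 0.21 and cell cycle 0.01 after adjustment for length, cell cycle 0.12 and stomata -0.023 with a minimum FPKM of 5, epidermis -0.050 with library totals made equal, and root 0.0053 from 0.5 h. The phenylpropanoid and indole defence lists both had a median of 0.02, the value over all genes.

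**Figure D4:**
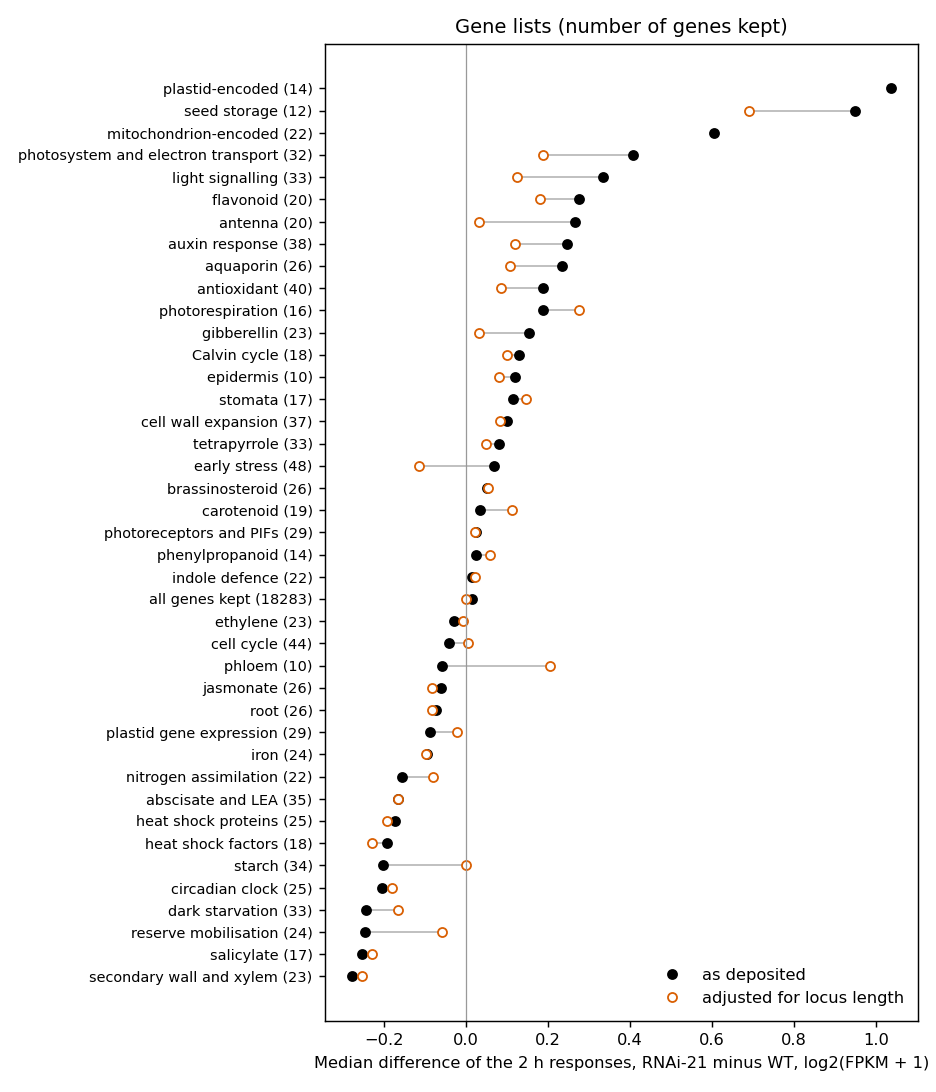
Median response difference (x axis, log2(FPKM + 1)) of each gene list, with the number of genes kept in brackets, as deposited (filled) and after adjustment for locus length (open, chosen after seeing the data; none for organelle genes, which had no length). Plastid-encoded genes at 1.04 and seed storage genes at 0.95 lie highest and xylem genes at -0.28 lowest, and antenna, starch and reserve mobilisation genes move to near 0 with the adjustment.

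**Figure D5:**
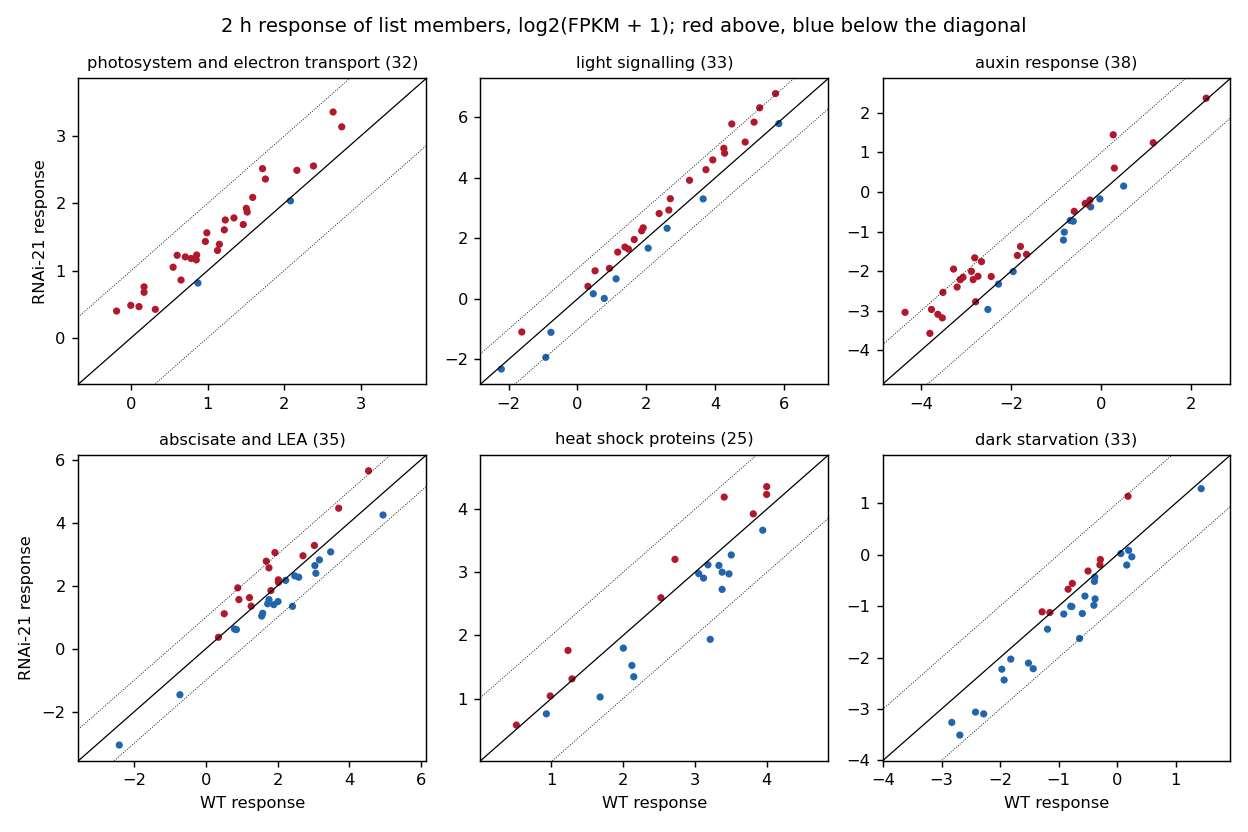
The 2 h response of each member of 6 lists in WT (x axis) and RNAi-21 (y axis), log2(FPKM + 1), with 1 library at each corner; axes differ between panels, the solid line marks equal responses and dotted lines a difference of 1. Of the photosystem list 30 of 32 genes lie above the line, and of the dark starvation list 25 of 33 lie below it.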

How the data were processed

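RNA was sequenced from 6 libraries, 1 per group, of WT and RNAi-21 seedlings. The submitters' processing notes name HISAT and Bowtie2, with no version. Which tool quantified the genes, on which build and annotation, is not given in the sources used here. Deposited values are read as FPKM computed by the authors. No header names the unit: it is inferred from non-integer values with unequal sums, and a partial TPM table would look alike. Depth is unknown, so no counting interval is given.

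Tables were joined on locus and transformed as log2(FPKM + 1). A threshold of 1 was used for counts. The genes named are the 15 highest and 15 lowest response differences of genes that have a symbol and reach an FPKM of 5, and in each list described up to 4 of the members with the largest differences, here with HY5, RAB18, HSP101, HPR, TOC1, CML38, F3H, PORA and other members of known role added after their values were seen. Subgroups within lists were formed after seeing the data, and members and lists were chosen with earlier results of these data known. Symbols and locus lengths came from RefSeq TAIR10.1, which matched 19532 of 19763 genes. The length adjustment subtracts the median of 50 bins of equal gene number and was added after seeing the data. Alternatives were a pseudocount of 0.1, other filters, 2 scalings, a threshold of 2 and a 0.5 h starting point. Promoters and cytosolic ribosomal proteins were not analysed here. Python 3.11.15, pandas 2.3.3 and numpy 2.4.6 were used.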

Additional observations from a re-analysis of the deposited data

Results flagged for a closer look

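Of the 30 named genes, 21 had responses of opposite sign in the 2 genotypes: 10 decreased in WT and increased in RNAi-21, and 11 did the reverse. The genes were chosen for a large difference, which favours opposite signs and forces them where both responses are under 1 in size. With 1 library at each corner the difference was not tested for any of the 21. The response differences of the first 10 were 2.47 for U1.5, 1.82 for MUB2, 1.66 for TCP3, 1.65 for MLP328, 1.64 for AREB3, 1.5 for U2.3, 1.48 for BNS, 1.48 for LCR67, 1.45 for MIR171c and 1.44 for PTAC15. Those of the other 11 were -1.62 for ACA2, -1.29 for HAC1, -1.28 for GLR2.1, -1.27 for IBM1, -1.26 for LTP6, -1.21 for NET1D, -1.19 for CYP707A1, -1.17 for INT3, -1.13 for TOR, -1.13 for HB-1 and -1.12 for ABCG37.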

How the results depend on the processing

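The numbers of genes at least 1 higher and at least 1 lower, 180 and 124, became 486 and 403 with a pseudocount of 0.1, 84 and 78 with a minimum FPKM of 5, and 85 and 81 with an FPKM of at least 1 in each of the 4 libraries. They were 186 and 127 with no filter, 201 and 99 with median-ratio scaling, and 121 and 275 with organelle genes left out and totals made equal, which moved the median over all genes from 0.02 to -0.14. A threshold of 2 left 11 and 9, and the length adjustment 85 and 98. With 0.5 h as the starting point the numbers were 183 and 133, of which 60 and 30 were also counted from 0 h; both use the same 2 h libraries. The cause of these shifts was not tested, other than that fewer genes enter under stricter filters.

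Of the list medians at least 0.1 from 0, these changed sign. Stomata went to -0.023 with a minimum of 5. With totals made equal, the Calvin cycle went to -0.045, gibberellin to -0.023 and epidermis to -0.050. From 0.5 h, light signalling went to -0.24, flavonoids to -0.12, epidermis to -0.11, nitrogen assimilation to 0.037, reserve mobilisation to 0.0038 and the gene MLP328 to -0.19. After the length adjustment starch went to 0.00023. Medians within 0.1 of 0 changed sign in 8 lists with totals made equal, 8 from 0.5 h, 3 after the length adjustment, 2 with a minimum of 5, and 1 each with no filter, with 1 in each library and with median-ratio scaling; among these were phloem to 0.21 and early stress to -0.12 after the length adjustment, cell cycle to 0.12 with a minimum of 5, and indole defence to -0.34 from 0.5 h. All 30 named genes stayed at least 1 from 0 with the other pseudocount and with both scalings. After the length adjustment 23 did so, and from 0.5 h 13 of 29. Having no filter or a minimum of 5 could not change this, since a filter leaves a gene's value as it is and the named genes all reach 5. With an FPKM of at least 1 in each library of the comparison, 26 of the 30 were kept. No paired analysis was possible because each group holds 1 library, and for the same reason no library could be left out.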

Other observations

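The highest and lowest response differences of genes that lack a symbol in the name table and reach an FPKM of 5, chosen after their values were seen, involved values listed at 0. AT4G14280 had an FPKM of 41.03 in WT at 2 h and 6.0 in RNAi-21 at 0.5 h and was listed at 0 in the other 4 libraries, a response difference of -5.39. AT1G25053 had 7.67, 2.65 and 0 in WT at 0, 0.5 and 2 h and 1.52, 1.06 and 7.23 in RNAi-21, a difference of 4.82. Without a listed 0, the unnamed locus XLOC_014961 had 37.44, 71.57 and 106.4 in WT and 75.45, 522.59 and 18.22 in RNAi-21, a difference of -3.47. AT4G14090 had 21.73, 10.71 and 5.12 in WT and 12.74, 6.97 and 22.13 in RNAi-21, a difference of 2.64 that stayed at 2.46 after adjustment for length.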
